A study of Drosophila melanogaster with 30 samples.

Results

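The Toll and Imd pathways of Drosophila were followed through the transcripts of 9 listed genes in fly brains kept awake or left undisturbed. The list was set by gene symbol: the recognition proteins PGRP-SA, PGRP-LB and PGRP-SB1, the ligand gene spz, the receptor gene Tl, the inhibitor gene cact, and the transcription factor genes dl, Dif and Rel. The array's annotation, updated by gene number, names a probe set for 8 of the 9 genes, 1 probe set each, among 13966 probe sets tested; PGRP-SA was not analysed here. Whole brains came from virgin Canton-S females (a wild-type laboratory strain) 5 days old, kept 50 to a vial at 25 °C with 12 h of light. Each array held RNA from its own pool of 139 to 193 brains, and each of the 10 groups had 3 arrays. In the deprivation experiment (21 arrays), deprived flies were kept awake by manual stimulation of their monitors for 2, 4 or 6 h starting at ZT14 (14 h after lights came on); sleeping flies were undisturbed until the same hours, and 1 group was taken at ZT14. In the active period experiment (9 arrays), stimulated flies were handled in the same manner from ZT10 to ZT14, wake flies were undisturbed until ZT14, and 1 group was taken at ZT10. No group carried a mutation or transgene. Stimulation and deprivation were manual in both experiments, so lost sleep and handling cannot be told apart within deprived minus sleeping, and the stimulated flies are the study's control for handling.

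Insects fight microbes with secreted peptides, and 2 signalling routes that end in NF-κB factors control much of that response in flies. In the Toll route, recognition proteins in the haemolymph start a protease cascade that cleaves the cytokine Spätzle (spz), which binds the receptor Toll (Tl); the inhibitor Cactus (cact, an IκB) is then destroyed and releases Dorsal (dl) and Dif. In the Imd route, bacterial peptidoglycan is bound by receptors of the PGRP family and the factor Relish (Rel) is cleaved and enters the nucleus. Several genes of both routes, among them cact, Rel, PGRP-LB and PGRP-SB1, are known targets of NF-κB factors in infected flies. Both routes act mainly through protein cleavage and degradation, which transcript levels do not measure.

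The median signal of an array was 4.89 to 4.96 (log2), and within groups the correlation between arrays was 0.974 to 0.997 across probe sets. Brain markers were measured from para at 4.87 and elav at 5.93 to nSyb at 7.76 and ChAT at 8.09 among neuronal genes, and from nrv2 at 5.60 to alrm at 8.10 and Gs2 at 10.6 among glial genes (log2 means over all arrays). Yolk protein and lipophorin transcripts of the fat body were bright too, with Yp1 at 11.6 and apolpp at 9.39. The source name of sleeping 6 h replicate 1 says deprived, while its other labels say sleeping, and it was placed with the sleeping arrays. With 3 arrays in a group precision is limited by their number, and in brain pools fewer cells of a type and less RNA per cell cannot be told apart. Chip lots and hybridisation times, read from the header fields, were spread unevenly over the groups: at 2 h and at 6 h no deprived array shared a hybridisation time with a sleeping array of that hour, so within those hours the 2 cannot be told apart.

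The first comparison asked whether transcripts of the pathways differ, hour by hour, between brains of deprived and of sleeping flies. Rel rose, by 0.39 ± 0.0677 log2 units as a mean over 2, 4 and 6 h (SE; 1.31-fold; limma adjusted p = 0.00760), and was the 1 of 8 genes that passed 0.05, where 0.924% of all probe sets passed and 0.487% passed as higher. All 8 genes had a positive difference, as had 54.2% of probe sets, with a median of 0.17 against 0.0095 over all probe sets tested. At an unadjusted p under 0.05, 5 of the 8 were called, against 14.4% of all probe sets. After Rel, the differences were 0.60 for PGRP-SB1, 0.21 for PGRP-LB, 0.19 for cact and 0.16 for spz, none of which passed.

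Among the recognition genes, PGRP-SB1 encodes a secreted enzyme that cuts peptidoglycan and is strongly induced on infection in flies. It read 6.65, 7.51 and 6.88 in the 3 deprived arrays at 2 h, against 6.35, 6.52 and 6.67 in the sleeping arrays (log2 levels, as below). At 4 h it read 7.14, 7.03 and 7.88 in deprived brains, against 6.68, 6.71 and 6.70 in sleeping brains. At 6 h it read 6.94, 6.90 and 8.11 in deprived brains, against 6.82, 6.57 and 6.59 in sleeping brains. The deprived arrays lay above all sleeping arrays at 4 and 6 h and overlapped them at 2 h, and in each deprived group 1 array stood well above the other two. The mean difference was 0.60 ± 0.155 (1.52-fold; adjusted p = 0.0758 by limma). Without deprived 6 h replicate 3 the difference at 6 h was 0.26 in place of 0.66, and without deprived 2 h replicate 2 that at 2 h was 0.25 in place of 0.50.

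PGRP-LB encodes an amidase that breaks down peptidoglycan and so dampens Imd signalling. Its level was 4.99, 5.08 and 5.07 in deprived brains at 2 h, against 4.87, 5.12 and 4.88 in sleeping brains. At 4 h it was 4.95, 5.14 and 5.27 in deprived brains, against 4.82, 4.72 and 4.87 in sleeping brains. At 6 h it was 4.93, 5.05 and 5.21 in deprived brains, against 4.87, 4.75 and 4.87 in sleeping brains. As for PGRP-SB1, the groups were apart at 4 and 6 h, narrowly at 6 h, and overlapped at 2 h. The mean difference was 0.21 ± 0.0535 (adjusted p = 0.0710 by limma), with differences of 0.09, 0.31 and 0.23 at 2, 4 and 6 h. The 2 h difference was 0.0495 without sleeping 2 h replicate 1 and 0.17 without sleeping 2 h replicate 2.

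The ligand gene spz had 4.73, 5.36 and 5.05 in deprived brains at 2 h, against 4.98, 5.05 and 4.95 in sleeping brains. At 4 h its level was 4.94, 5.12 and 5.21 in deprived brains, against 4.73, 4.71 and 4.92 in sleeping brains. At 6 h it was 5.05, 5.09 and 4.90 in deprived brains, against 4.97, 4.85 and 4.82 in sleeping brains. The groups were apart at 4 h, by a small gap, and overlapped at the other hours; 8 of 9 deprived arrays lay above the sleeping mean of their hour. The mean difference was 0.16 ± 0.0717 (adjusted p = 0.317 by limma).

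The receptor gene Tl was the member whose difference did not keep 1 sign over the hours. It read 5.29, 5.34 and 5.58 in deprived brains at 2 h, against 5.31, 4.94 and 5.32 in sleeping brains. At 4 h it read 5.31, 5.67 and 5.44 in deprived brains, against 5.33, 5.03 and 5.35 in sleeping brains. At 6 h it read 5.34, 5.35 and 4.97 in deprived brains, against 5.59, 5.44 and 5.42 in sleeping brains. The deprived arrays overlapped the sleeping arrays at 2 and 4 h and lay below all of them at 6 h. The differences were 0.21, 0.23 and -0.26 at 2, 4 and 6 h, and their mean was 0.06 ± 0.103 (adjusted p = 0.795 by limma). The change of the difference from 2 to 6 h was -0.48 ± 0.253 (adjusted p = 0.999 by limma).

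The inhibitor gene cact had 6.37, 6.60 and 6.49 in deprived brains at 2 h, against 6.26, 6.24 and 6.44 in sleeping brains. At 4 h it had 6.65, 6.49 and 6.71 in deprived brains, against 6.27, 6.44 and 6.31 in sleeping brains. At 6 h it had 6.50, 6.55 and 6.42 in deprived brains, against 6.40, 6.34 and 6.42 in sleeping brains. The groups were apart at 4 and 6 h, with a very small gap at 6 h, and overlapped at 2 h. The mean difference was 0.19 ± 0.0463 (1.14-fold; adjusted p = 0.0686 by limma), and the largest of the 3 was 0.28 at 4 h.

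Of the transcription factor genes, Rel encodes the NF-κB factor of the Imd route. Rel had 5.58, 5.98 and 5.77 in deprived brains at 2 h, against 5.35, 5.38 and 5.55 in sleeping brains. At 4 h Rel had 5.85, 5.63 and 6.06 in deprived brains, against 5.29, 5.33 and 5.27 in sleeping brains. At 6 h Rel had 5.48, 5.52 and 5.43 in deprived brains, against 5.22, 5.16 and 5.29 in sleeping brains. Every deprived array lay above all 3 sleeping arrays of its hour, at each of the 3 hours, which held for 1 of the 8 genes and for 0.251% of all probe sets. The differences were 0.35 at 2 h, 0.55 at 4 h and 0.26 at 6 h. At ZT14, before deprivation, Rel read 5.47, 5.57 and 5.12, a range that overlaps the deprived arrays at 6 h and sleeping arrays at all hours.

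The factors of the Toll route, dl and Dif, gave dim signals, brighter than 15.8% and 18.1% of probe sets, where RMA compresses differences. The level of dl lay between 2.94 and 3.22 in the 9 deprived arrays, against 2.93 and 3.25 in the 9 sleeping arrays. Dif lay between 2.95 and 3.42 in deprived brains, against 3.03 and 3.24 in sleeping brains. Both genes overlapped at every hour. Their mean differences were 0.04 for dl (95% interval -0.07 to 0.15) and 0.07 for Dif (-0.04 to 0.19), so rises of the size seen for Rel lie outside both intervals, on a scale that understates dim genes.

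**Figure D1:**
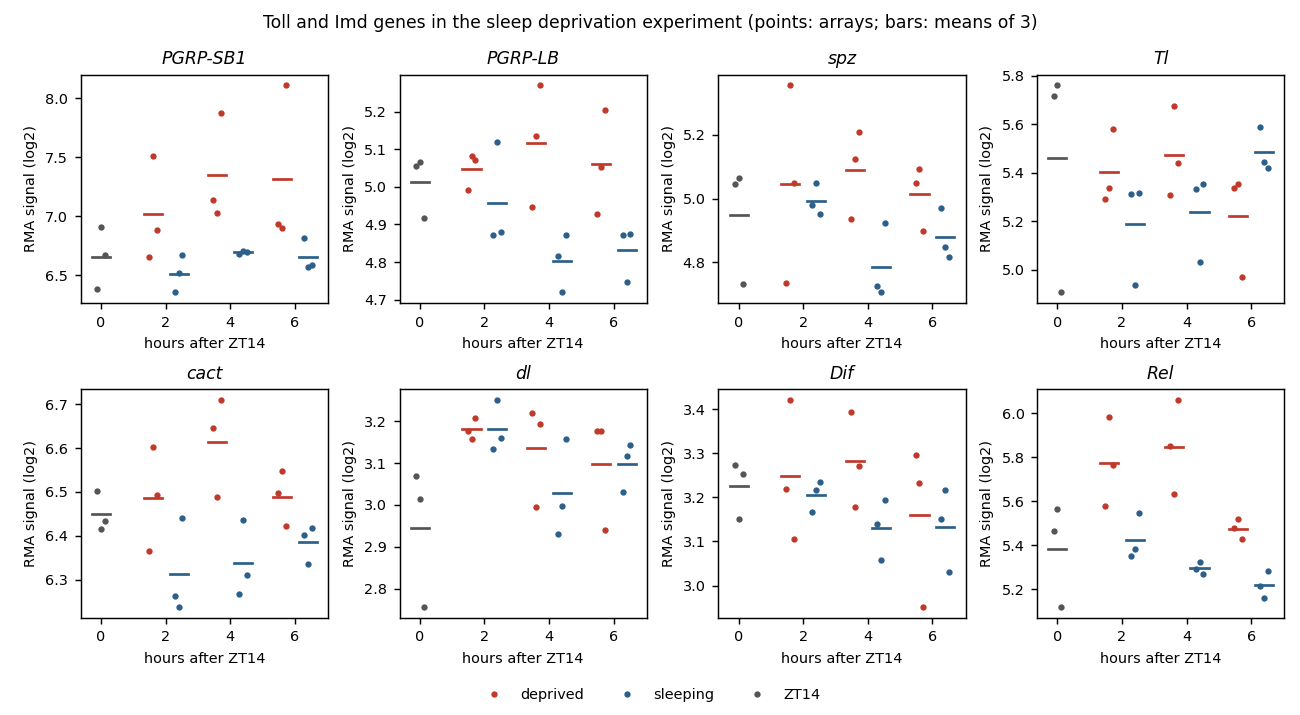
RMA signal (log2, a scale of its own in each panel) of 8 Toll and Imd genes against hours after ZT14, with 1 point for each array and a bar at the mean of 3. Deprived (red) stands left of sleeping (blue) at each hour; the Rel groups do not overlap at any of the 3 hours, and the Tl means change places at 6 h.

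Counting arrays, Rel, cact, PGRP-LB and PGRP-SB1 were above the sleeping mean of their hour in 9 of 9 deprived arrays, which held for 1.36% of all probe sets. Deprived arrays lay above all sleeping arrays for 1 of 8 genes at 2 h (7.15% of probe sets), for 5 of 8 at 4 h (3.44%) and for 4 of 8 at 6 h (15.4%). Single hours rest on 3 arrays against 3. No gene of the 8 passed 0.05 at 2 h, 4 h or 6 h (limma), where 0.00716%, 0.0143% and 0.0931% of all probe sets passed. At an unadjusted p under 0.05, 2, 5 and 3 of the 8 were called, against 8.33%, 4.37% and 18% of probe sets. The F test over the 3 hours called 0 of the 8 and 0.222% of probe sets, with Rel at an adjusted p of 0.0507 and 4 of the 8 at an unadjusted p under 0.05, against 12% of probe sets.

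The time course from ZT14 asked in which direction each condition moved. Per hour, the slope of Rel was 0.0175 in deprived flies and -0.031 in sleeping flies, and neither passed limma's test (adjusted p = 0.627 and 0.729). PGRP-SB1 had 0.116 per hour in deprived flies (adjusted p = 0.228), and PGRP-LB had -0.035 per hour in sleeping flies (adjusted p = 0.548, limma). No trend of the 8 genes passed, in deprived flies (0.294% of probe sets passed) or in sleeping flies (0.107%), and 1 of the 8 had an unadjusted p under 0.05 in each (15.7% and 7.89% of probe sets). The change of the deprivation difference from 2 to 6 h passed for 0 of the 8 and for 0.00716% of probe sets, and 0 of the 8 had an unadjusted p under 0.05, against 3.32% of probe sets. The mean levels of Rel ran from 5.85 in deprived flies at 4 h through 5.78 at 2 h to 5.48 at 6 h, then 5.43 in sleeping flies at 2 h, 5.38 at ZT14, 5.30 in sleeping flies at 4 h and 5.22 at 6 h. Neighbours in that order overlapped except deprived 2 h and deprived 6 h.

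The second comparison asked whether handling during the flies' active period goes with the same transcripts. No gene of the 8 passed 0.05 in stimulated minus wake flies (limma; 0.0859% of all probe sets passed, 0.0788% as higher). The differences were positive for 7 of the 8 (51.2% of probe sets), with a median of 0.23 against 0.0030 over all probe sets, and 4 of the 8 had an unadjusted p under 0.05, against 7.03% of probe sets. PGRP-SB1 was nearest to the threshold. It read 8.20, 7.73 and 8.15 in stimulated brains, against 7.28, 6.95 and 6.35 in wake brains, with no overlap. The difference was 1.17 ± 0.207 (2.25-fold; adjusted p = 0.0566 by limma). In the 6 fits without 1 array the difference was 0.91 (without wake replicate 3) to 1.38 (without wake replicate 1). Of these fits 1 passed, the one without wake replicate 1 (adjusted p = 0.0229 by limma). Adjusted p-values of the 6 fits reached 0.345 (limma). Wake replicate 1 is also the one wake array from chip lot 4, so 1.38 is also the difference within lot 3.

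Rel read 5.66, 5.64 and 5.93 in stimulated brains, against 5.19, 5.36 and 5.33 in wake brains. PGRP-LB read 5.24, 5.25 and 5.34 in stimulated brains, against 4.96, 4.99 and 4.79 in wake brains. The ligand gene spz read 5.22, 5.30 and 5.17 in stimulated brains, against 4.79, 4.84 and 5.13 in wake brains. For these 3 genes and PGRP-SB1 every stimulated array lay above every wake array, which is 4 of 8 genes, against 6.77% of probe sets. The differences were 0.45 ± 0.125 for Rel, 0.36 ± 0.0959 for PGRP-LB and 0.31 ± 0.0933 for spz, with limma adjusted p-values of 0.415, 0.362 and 0.511. The levels of cact, 6.44, 6.58 and 6.56 in stimulated brains against 6.39, 6.45 and 6.33 in wake brains, overlapped, as did those of Dif, dl and Tl, with differences of 0.14, 0.16, 0.10 and -0.06. Rel was the 1 of 8 genes whose arrays were apart at all 3 hours of deprivation and under stimulation, against 0.136% of probe sets.

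**Figure D2:**
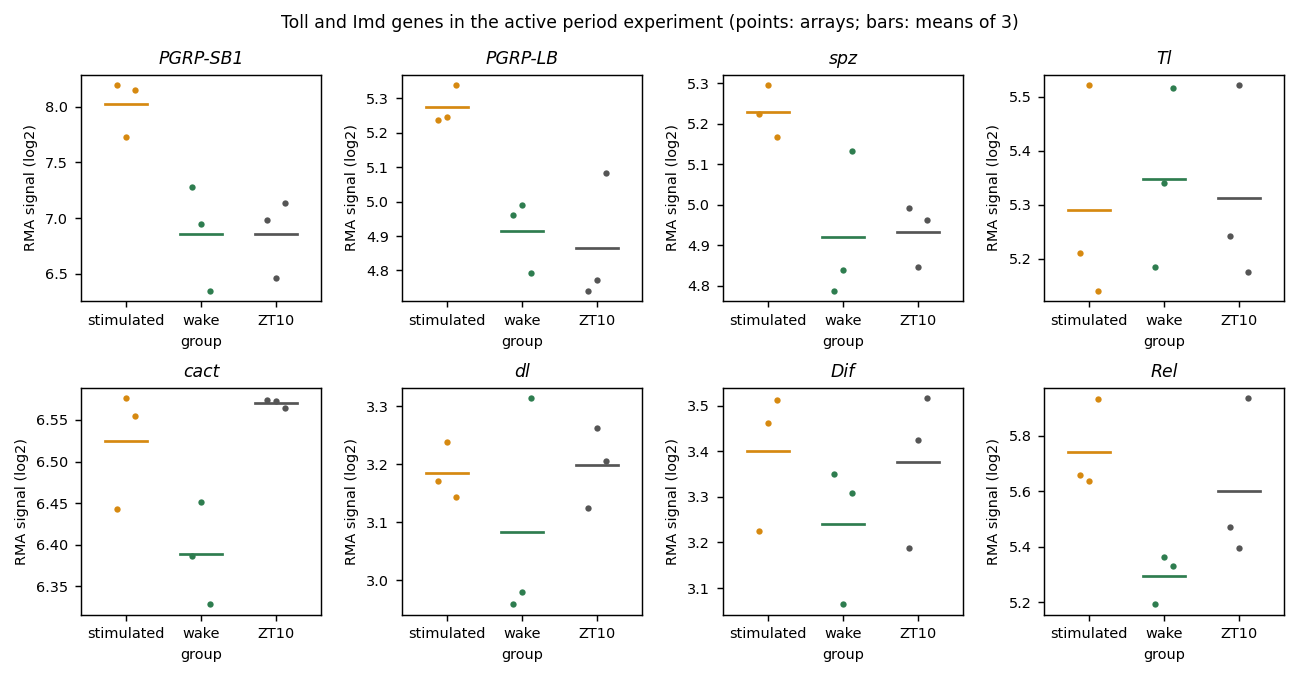
RMA signal (log2, a scale of its own in each panel) of the 8 genes in stimulated, wake and ZT10 brains, with 1 point for each array and a bar at the mean of 3. PGRP-SB1, PGRP-LB, spz and Rel lie higher in all 3 stimulated arrays than in all 3 wake arrays.

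The 4 h deprivation difference and the stimulation difference, each after 4 h of handling, were then set against each other in 1 fit of all 30 arrays. No gene of the 8 differed between them, and no probe set passed (0% of 13966); at an unadjusted p under 0.05 there were 246, or 1.76%, and 0 of the 8. For Rel, deprivation minus stimulation was 0.11 (95% interval -0.27 to 0.48), and for cact it was 0.14 (-0.07 to 0.35). For PGRP-SB1 it was -0.51 (-1.31 to 0.28) and for Tl 0.29 (-0.21 to 0.79), with limma adjusted p-values of 1.00. These intervals are wide beside the differences themselves, so neither alikeness nor a difference was shown.

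**Figure D3:**
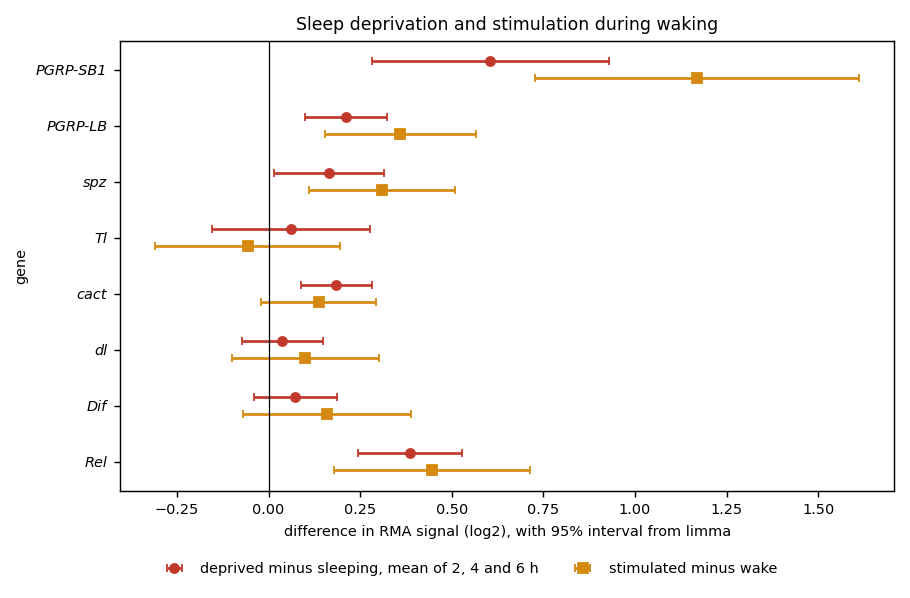
Differences in RMA signal (log2) of the 8 genes for deprived minus sleeping as a mean of 2, 4 and 6 h (red circles) and for stimulated minus wake (orange squares), with 95% intervals from limma before any adjustment. PGRP-SB1 has the largest differences, 0.60 and 1.17, and the intervals of Tl, dl and Dif include 0 in both comparisons.

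Undisturbed flies gave the course of the waking period itself. In wake brains at ZT14 minus brains at ZT10, no gene of the 8 passed 0.05 (limma; 0.0644% of probe sets passed) and 2 of the 8 had an unadjusted p under 0.05, against 11.4% of probe sets. Rel read 5.19, 5.36 and 5.33 in wake brains at ZT14, against 5.47, 5.40 and 5.94 at ZT10, a difference of -0.31 ± 0.125 (adjusted p = 0.394 by limma). Without ZT10 replicate 3, its highest array, the difference was -0.14. The level of cact was 6.39, 6.45 and 6.33 at ZT14, against 6.57, 6.57 and 6.56 at ZT10, a difference of -0.18 ± 0.0732 (adjusted p = 0.387 by limma). For these 2 of the 8 genes the arrays at ZT14 lay below all arrays at ZT10, as for 7.48% of probe sets. The stimulated mean of Rel was 5.74, against a ZT10 mean of 5.60. The stimulated and ZT10 arrays overlapped only through ZT10 replicate 3, at 5.94. The other ZT10 arrays, at 5.47 and 5.40, lay below all stimulated arrays. Stimulated minus ZT10 was not tested.

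The rest of both routes was covered by 58 genes in 6 lists by role, and none of them passed 0.05 in the mean over 2, 4 and 6 h (limma). Of these, 34 had a positive and 24 a negative difference, where 54.2% of all probe sets were positive, and 9 had an unadjusted p under 0.05, against 14.4% of probe sets; both counts are near those shares. Upstream of Toll, the 12 genes of recognition and Spätzle activation had a median difference of 0.04. Their smallest p-values belonged to the proteases Hayan (0.21, adjusted p = 0.137) and spirit (0.08, adjusted p = 0.443) and to the fungal glucan receptor gene GNBP3 (-0.15, adjusted p = 0.479). The 11 other genes of the Spätzle and Toll families had a median of 0.05, with the Toll-related receptor genes MstProx at 0.13 (adjusted p = 0.185) and Tehao at 0.11 (adjusted p = 0.294) and the Spätzle relative spz4 at 0.12 (adjusted p = 0.358). Inside the cell the 10 Toll genes had a median of -0.09. The nearest to the threshold was cactin, which encodes a partner of Cactus, at -0.16 ± 0.0402 (limma adjusted p = 0.0679). The arrestin gene krz had -0.19 (adjusted p = 0.297) and the ubiquitin ligase gene Pli had -0.17 (adjusted p = 0.329).

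Among Imd genes, the 5 of recognition had a median of 0.06, with the amidase gene PGRP-SC2 at 0.19 (adjusted p = 0.306), PGRP-LA at 0.12 (adjusted p = 0.398) and PGRP-SB2 at 0.06 (adjusted p = 0.594). The 10 intracellular genes had a median of 0.0041. Their smallest p-values belonged to Uev1A (-0.19, adjusted p = 0.316), Diap2 (-0.20, adjusted p = 0.347) and ben (-0.11, adjusted p = 0.417), which act together in adding ubiquitin chains. The 10 negative regulators had a median of 0.0061, with the deubiquitinase gene CYLD at -0.09 (adjusted p = 0.348), pirk at 0.08 (adjusted p = 0.439) and casp at -0.08 (adjusted p = 0.520). Under stimulation none of the 58 passed either (0.0859% of probe sets passed), and 1 had an unadjusted p under 0.05, against 7.03% of probe sets. There the smallest p-values of the Toll lists belonged to nec (0.17), SPE (0.17), sphinx1 (-0.10), Toll-4 (-0.17), Toll-7 (-0.17), NT1 (-0.13), Myd88 (0.14), Deaf1 (-0.17) and Traf6 (0.15). Those of the Imd lists belonged to PGRP-SC2 (0.32), PGRP-LA (0.05), PGRP-LE (0.05), IKKbeta (0.09), Diap2 (-0.09), Uev1A (-0.12), trbd (-0.26), scny (0.12) and sick (-0.11), and the limma adjusted p-values of all these ran from 0.702 to 0.924.

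Larger values were found among the secreted products of the response. Of 8 antimicrobial peptide genes all had a positive difference in deprived brains, with a median of 0.41, and 1 passed; of 8 bomanin genes, which encode short peptides released through the Toll route, 7 were positive, with a median of 0.31, and 3 passed. Over all probe sets 54.2% were positive and 0.924% passed. Mtk, the peptide metchnikowin, rose by 0.91, and BomS2, BomBc3 and BomS5 rose by 0.83, 0.63 and 0.58. Under stimulation the medians were 0.67 and 0.46, and 0 peptide genes and 2 bomanin genes passed (limma), BomS2 at 1.06 (adjusted p = 0.0182) and BomS5 at 0.57 (adjusted p = 0.0385); 4 peptide genes had an unadjusted p under 0.05. Over all probe sets 0.0859% passed there and 7.03% had an unadjusted p under 0.05. Whether these lists differ from the signalling genes was not tested.

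**Figure D4:**
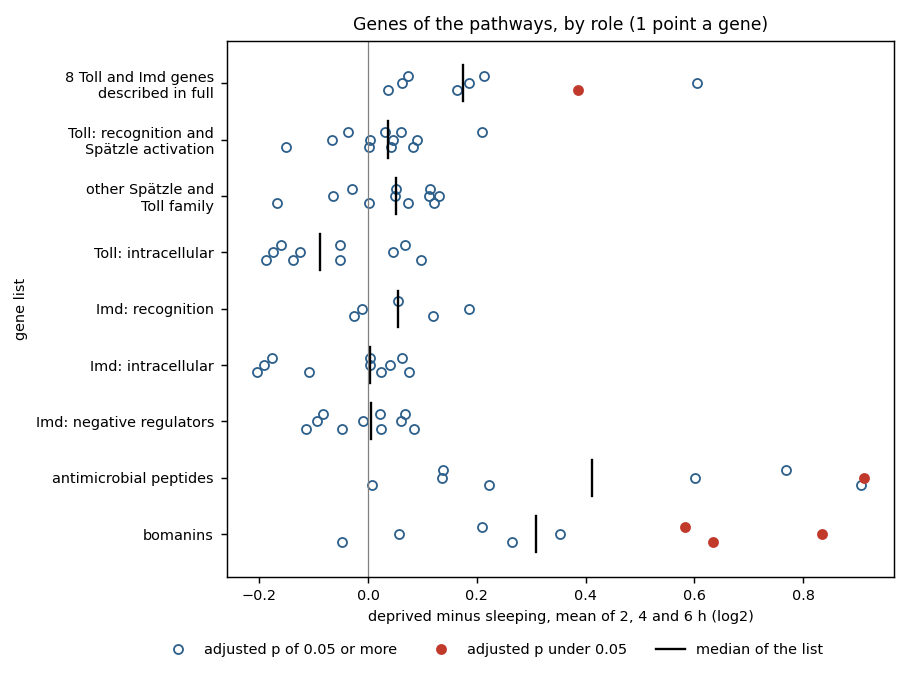
Deprived minus sleeping as a mean of 2, 4 and 6 h (log2) for each gene of 9 lists by role, with 1 point a gene, filled where the limma adjusted p is under 0.05, and a line at each list's median. The medians of the 6 signalling lists lie between -0.09 and 0.06, against 0.17 for the 8 genes described in full, 0.41 for antimicrobial peptides and 0.31 for bomanins.

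Across the 21 arrays of the deprivation experiment, 25 of the 28 pairs of the 8 genes were positively correlated, with a median Pearson r of 0.43. With group means taken out, 23 pairs were positive with a median of 0.31. These arrays share batches and controls, and the values describe them only. The strongest pair was Rel and cact (r = 0.77, and 0.72 within groups), followed by Rel and spz (r = 0.69, and 0.65 within groups). Among the 5 other named probe sets most like Rel were CG16978 (r = 0.84), mino, a glycerol-3-phosphate acyltransferase gene (0.81), CG1774 (0.81) and the lipase gene Lip4 (0.80). Those most like cact were mino (r = 0.87), nrv1, a sodium pump subunit gene (0.85), Lip4 (0.81), the serpin gene Spn28Dc (0.80) and Ect3 (0.79).

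Values within array batches were as follows. Within chip lots the mean difference of Rel was 0.38 in lot 2 and 0.43 in lot 3, and that of PGRP-SB1 was 0.34 and 0.86. With the hybridisation time as a block, Rel was 0.40 (limma adjusted p = 0.0432) and PGRP-SB1 was 0.45. Within hybridisation time 2, where hours were not matched, the deprived minus sleeping difference of Rel was 0.55. At 4 h only within time 2 it was also 0.55, with 1 deprived array against 2 sleeping arrays. Within time 3 it was 0.07, where deprived arrays of 6 h stood against sleeping arrays of 2 h, so hours were not matched there either. Hybridisation time 4 held 4 arrays, all of them deprived; without them the mean difference of Rel was 0.40 (limma adjusted p = 0.0486). The 3' minus 5' signal of the GAPDH control, a measure of RNA quality, averaged 1.94 in deprived arrays (1.71 to 2.36), against 1.71 in sleeping arrays (1.40 to 2.22), and with it as a covariate Rel was 0.39 (limma adjusted p = 0.0480).

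Markers of fat body, a main source of immune peptides in flies, had a median difference of 0.06 over 9 genes, none of which passed by the brightest probe set, and their summed signal spanned 4170 to 12081 in deprived arrays, against 3390 to 11601 in sleeping arrays. A second probe set of apolpp was lower in deprived brains (-0.52, limma adjusted p = 0.0269). Haemocyte markers had a median of 0.0030 over 11 genes, 0 of which passed, with summed signals of 695 to 890 in deprived arrays, against 680 to 862 in sleeping arrays; among the haemocyte genes eater (2.88) and NimC1 (3.48) were dim, while PPO2 (7.47), Col4a1 (7.33), vkg (7.23) and Pxn (6.56) were brighter than 82.7% to 92.2% of probe sets. Neuron markers had a median of -0.32 over 8 genes, photoreceptor markers -0.44 over 5 and antenna and cuticle markers 0.21 over 8, none of which passed, with 5, 4 and 2 at an unadjusted p under 0.05, against 14.4% of probe sets. Their summed signals were 556 to 1239, 559 to 1074 and 678 to 1305 in deprived arrays, against 966 to 1342, 542 to 1650 and 639 to 1244 in sleeping arrays. Muscle markers had a median of 0.13 over 7 genes and glia markers -0.02 over 7, none of which passed. At an unadjusted p under 0.05 there were 3 and 1, again against 14.4% of probe sets. Under stimulation the antenna and cuticle markers had a median of 0.39, with summed signals of 979 to 1415 in stimulated arrays, against 799 to 937 in wake arrays, and fat body markers had -0.11. Photoreceptor markers did not fall together there: trp had 0.41, Arr1 0.34, Arr2 0.22, inaD -0.01 and trpl -0.05, and none passed. The part of these cells in the differences of Rel and PGRP-SB1 was not tested.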

How the data were processed

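The authors deposited log2 expression values made by RMA (robust multi-array average: background correction, quantile normalisation and 1 summary value a probe set), as the series' design text states. The affy package is named in the submitters' processing notes; its version is not given in the sources used here. It is not stated if all 30 arrays were normalised together, and differences were taken within each experiment. Of 14010 probe sets, 44 controls were left out. Symbols were updated by gene number in a RefSeq table; 12443 probe sets have 1 symbol, 327 several and 1196 none. Genes with several probe sets entered list counts with the brightest.

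Groups came from titles. Differences were fitted with limma 3.58.1 (R 4.3.3; lmFit, eBayes) with 1 mean per group, two-sided, over the 21 or 9 arrays of an experiment, and adjusted by Benjamini-Hochberg across the 13966 probe sets tested (threshold 0.05). The fit was tested on simulated data. The genes, lists and tests were chosen with earlier results of these data known, so no count here is independent support. Named beyond the 8 genes were list genes that passed or, where none did, the 3 smallest p-values of a signalling list (mean and stimulation comparisons), and the 5 probe sets most correlated with Rel and with cact, 1 of which is not reported here. Arrays of a group are biological replications in the submitters' words. The p-values set each difference against the spread between arrays of a group, which also holds differences of chip lot and hybridisation time.

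Alternatives were omission of probe sets below the median brightness, renewed quantile normalisation, median centring, all 30 arrays or only the compared groups in a fit, weighting of arrays, a trended and robust variance, a block for the replicate number, the chip lot or the hybridisation time, and omission of each array. Added after seeing the data were a GAPDH covariate and omission of hybridisation time 4.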

Additional observations from a re-analysis of the deposited data

Results flagged for a closer look

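Tl, the receptor gene of the Toll route, stood out because its deprived arrays lay on opposite sides of the sleeping mean at different hours. All 3 deprived arrays lay above the sleeping mean at 2 h, with a difference of 0.21 log2 units, and at 4 h, with 0.23, and all 3 lay below it at 6 h, with -0.26. The change from 2 to 6 h, tested with limma, was -0.48 ± 0.253 (unadjusted p = 0.0733, adjusted p = 0.999), and the change from 4 to 6 h was not tested. The deprived means were 5.40, 5.47 and 5.22 at 2, 4 and 6 h, against sleeping means of 5.19, 5.24 and 5.48, so both conditions contribute to the change. Without deprived 6 h replicate 3, the lowest deprived array, the 6 h difference was -0.14. The 2 h difference was 0.0891 without sleeping 2 h replicate 2, and the 4 h difference was 0.13 without sleeping 4 h replicate 2. With the hybridisation time as a block the 6 h difference was -0.77 and passed (limma adjusted p = 0.0370), in a fit where the 6 h groups share no hybridisation time and their difference rests on the other groups.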

How the results depend on the processing

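Rel kept its rise over 2, 4 and 6 h under the 12 other settings, at 0.38 to 0.43 (limma adjusted p = 3.21e-05 to 0.0486), and in the 18 fits without 1 array, at 0.35 to 0.42 (adjusted p = 0.00271 to 0.0231). Without sleeping 6 h replicate 1, whose labels conflict, it was 0.38 (adjusted p = 0.0182). The number of the 8 genes called in the mean was 2 after renewed quantile normalisation, 4 with all 30 arrays and 5 with array weights, where the calls over all probe sets were 133, 206 and 1157, against 129. It was 1 to 3 without 1 array, when 66 to 189 probe sets were called, with the most without deprived 2 h replicate 1 and the fewest without sleeping 4 h replicate 1. Over all probe sets, the calls were 72 with the hybridisation time block, 58 without hybridisation time 4 and 42 with the GAPDH covariate. Array weights also called 1 gene at 2 h, 5 at 4 h, 5 in the F test and 1 in the deprived trend (PGRP-SB1), and the hybridisation time block called 1 at 6 h (Tl). The calls over all probe sets in these fits are not given here. In the mean, array weights raised those calls from 129 to 1157, so these counts are not read as a result about the 8 genes. The F test called 1 gene after renewed quantile normalisation, with all 30 arrays, with only the groups compared and with trended and robust variance. It called 0 to 1 without 1 array, when 21 to 74 probe sets were called in all, against 31. Under stimulation 1 gene, PGRP-SB1, was called after median centring, with only the groups compared, with the replicate block (limma adjusted p = 0.0319), with the chip lot block and with array weights. Without 1 array 0 to 1 were called, when 1 to 5 probe sets were called in all, against 12. For the other settings of the F test and of stimulation, calls over all probe sets are not given here.

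Directions turned in values that passed no test. With the hybridisation time block, PGRP-LB at 2 h was -0.0259 and PGRP-SB1 at 2 h was -0.66. The change of PGRP-SB1 from 2 to 6 h was -0.0749 with array weights, -0.31 without hybridisation time 4 and -0.24 to 0.40 without 1 array. Tl under stimulation was 0.0229 with the GAPDH covariate and -0.17 to 0.0277 without 1 array. Without 1 array, the change of Rel from 2 to 6 h ranged from -0.19 to 0.0102, its deprived trend from -0.0024 to 0.031 and its deprivation minus stimulation difference from -0.0017 to 0.21. The causes were not tested.

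Same-numbered arrays of paired groups had deviations correlated at -0.38 to 0.44, so the numbers do not pair the pools; with the replicate block Rel was 0.39 (adjusted p = 0.0163). The hybridisation time block was not run for active period arrays, and dl and Dif have no value when probe sets below the median brightness are left out. Dim signal limits what dl and Dif can show.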

Other observations

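Arrays of a group differed in the levels of secreted peptides. In each deprived group the array highest in PGRP-SB1 was also the highest for some secreted peptides. At 2 h, replicate 2 was highest for 5 of 8 antimicrobial peptide genes and 8 of 8 bomanin genes. At 4 h replicate 3 was highest for 4 of 8 and 4 of 8, and at 6 h replicate 3 for 6 of 8 and 5 of 8. The same arrays were highest for 5, 4 and 1 of the 7 other Toll and Imd genes, and at 6 h replicate 3 was the lowest of its group for Rel, at 5.43, and for cact, at 6.42. DptB, the peptide diptericin B of the Imd route, read 7.44, 8.35 and 7.35 in deprived brains at 2 h and 7.19, 7.51 and 9.15 at 6 h, so the same pools stood high in it. In undisturbed flies, ZT10 replicate 3 was highest for PGRP-SB1, for 8 of 8 peptide genes and for 7 of 8 bomanin genes, with DptB at 9.33 against 8.09 and 6.95 in the other ZT10 arrays. Sleeping 6 h replicate 1, the array whose source name says deprived, was highest in its group for PGRP-SB1, for 5 of 8 peptide genes and for 8 of 8 bomanin genes, while Rel at 5.22 lay between the other two arrays of its group. The remaining groups varied. For peptide genes, bomanin genes and the 7 others, the ZT14 array highest in PGRP-SB1 was highest for 4 of 8, 6 of 8 and 4 of 7. The sleeping 4 h array had 5 of 8, 3 of 8 and 2 of 7, and the wake array 3 of 8, 4 of 8 and 1 of 7. Counts were lower for the stimulated array, at 3 of 8, 0 of 8 and 0 of 7, and for bomanins in the sleeping 2 h array, at 1 of 8, 0 of 8 and 4 of 7. With 3 arrays in a group, some genes of any list will share a highest array, and the share over all probe sets is not given here. These counts describe the arrays and were not tested.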
